A study of Mus musculus with 8 samples.

Results

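PRDX6 knockdown (KD) cells were compared with parental cells while both were exposed to largazole. The comparison rests on 4 of the 8 libraries of the series, chosen by their labels: 2 libraries of PRDX6 KD cells and 2 of parental cells, all 4 collected after 18 h of 100 nM largazole. All of them come from A223, a mouse squamous cell carcinoma line, and polyadenylated RNA was sequenced. Counts were given for 24411 genes, and 12517 passed the filter on low counts and were tested. The other 4 libraries, 2 parental and 2 KD with DMSO at 0 h, entered the same fit and give the knockdown difference without drug as a background. How the knockdown was made, and whether it is a clone or a pool, is not given in the sources used here, and a non-targeting construct was not analysed here. The labels do not tie the replicates to separate cultures, and each p-value therefore reflects library-to-library spread that may be technical. Drug and time differ together between the largazole and the DMSO libraries.

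PRDX6, a peroxiredoxin, detoxifies peroxides, oxidised phospholipids among them, and also has phospholipase A2 activity. Largazole is a cyclic depsipeptide from a marine cyanobacterium that inhibits class I histone deacetylases (HDACs), enzymes that remove acetyl groups from histones and, with their corepressors, hold many genes at a low level. Several programmes that appear below have well-known circuits: chaperones of the endoplasmic reticulum (ER) are induced through the sensors ATF6, IRE1 and PERK when unfolded protein builds up, interferon-stimulated genes are induced when interferon receptors signal to the nucleus, genes of DNA replication are induced by E2F factors before S phase, and hypoxia-inducible factor (HIF) induces genes of glycolysis and vessel growth.

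The targeted gene was low in the libraries labelled as knockdown. Prdx6 (a protein-coding gene on the minus strand of chromosome 1, 161240112 to 161251219 in GRCm38) stood at 257 and 233 CPM (counts scaled to library size, here with TMM factors) in the parental largazole libraries and at 81.1 and 64.9 CPM in the KD largazole libraries. The groups did not overlap, and KD cells held 29.8% of the parental level. The log2 fold change was -1.75 ± 0.11 (SE, adjusted p = 1.7e-05, edgeR's quasi-likelihood test), and -1.80 in DMSO, so that the difference between the drug and DMSO was 0.06 (adjusted p = 0.976).

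Library totals ranged from 13020492 to 15613216 counts. The KD largazole replicates stood further apart than those of the other groups: the log2 ratio of replicate 1 to replicate 2 had an SD over genes of 0.359, against 0.218 in parental largazole and 0.194 and 0.207 in the DMSO groups. Rn45s, the ribosomal RNA precursor, stood at 23900 and 742 CPM in the KD largazole libraries and at 7740 and 950 CPM in the parental ones. The genes of cytosolic ribosomal proteins summed to 40900 and 29500 CPM in KD largazole and to 33200 and 29800 CPM in parental largazole. Values with 1 library left out are therefore given beside the results they change. Such a fit leaves 1 library in that group and takes the spread from the other groups. KD largazole replicates stood furthest apart, so calls gained without 1 of them are not evidence of a difference. The carcinoma markers were partly absent: Krt8 and Krt18 were expressed (1110 and 1010 CPM, and 158 and 154 CPM, in parental largazole), while Krt5, Krt6a and Krt17 reached at most 4, 2 and 1 counts in any library and Cdh1 at most 11. Of 12 squamous markers 8 were tested and 0 passed with edgeR, while DESeq2 called 1 and at an unadjusted p under 0.05 1 was higher and 2 were lower, with sums of 1750 and 1680 CPM in parental and 2020 and 1820 CPM in KD largazole. Krt8 was called higher by edgeR with no filter (adjusted p = 0.0232) and with a replicate block (adjusted p = 0.0175). Without KD largazole replicate 2 the log2 fold changes were 0.42 for Krt8 and 0.24 for Krt18. Of 10 leukocyte markers 4 were tested and 1 was called lower, Cd68, a lysosomal protein of macrophages, with 62.1 and 61.5 CPM in parental and 47.5 and 41.1 CPM in KD largazole (adjusted p = 0.0128, and 0.0965 and 0.095 without parental largazole replicate 1 and 2). Cd74 went the other way without passing, with 33 and 43 counts in parental and 64 and 58 in KD largazole. Both KD libraries lay above both parental ones in 2 of the 4 tested leukocyte markers and below them in 2. The leukocyte markers Adgre1, Cd3e and Tyrobp had 0 counts in every library. Of 7 endothelial markers 3 were tested and 1 was called lower, Cdh5, with 57 and 46 counts in parental and 15 and 28 in KD largazole. Its adjusted p was 0.0397 with edgeR, a call lost without any 1 library other than KD largazole replicate 2. The other 2 tested endothelial markers had a log2 fold change above 0 and did not pass, and the median of the 3 was 0.36. Kdr had 0 counts in every library.

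Exons of Hsp90b1, Manf, Pdia3, Pdia6, Syvn1, Spcs3, Ddit3, Shmt2, Irf7, Irf9, Tapbp, Orc1, Fen1, Mcm7, Paics, Bnip3, Stc1 and Spns2, named below, overlap those of another gene, and whether the counting used strand is not given in the sources used here, so their values may include reads of that neighbour.

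Under largazole 2227 of 12517 tested genes (17.8%) differed between the genotypes at an adjusted p under 0.05. Of these 1017 were higher in KD cells (8.12% of the tested genes) and 1210 lower (9.67%). By at least 2-fold, 308 genes were higher (2.46%) and 131 lower (1.05%), and the median log2 fold change over all tested genes was -0.003. Both KD libraries lay above both parental ones in 25.6% of the tested genes and below them in 27.8%. Genes named for the largest changes were picked only where the groups did not overlap. In DMSO 1392 genes differed (11.1%), 890 of them higher (7.11%) and 502 lower (4.01%). Of the genes higher under largazole 592 were also called higher in DMSO, which is 58.2% of the largazole list and 66.5% of the DMSO list. Of the genes lower under largazole 369 were also called lower in DMSO, 30.5% of the largazole list and 73.5% of the DMSO list. Leaving out parental largazole replicate 1 or 2 gave 824 and 812 differing genes, leaving out KD largazole replicate 1 or 2 gave 3267 and 4121, and leaving out any 1 DMSO library gave 1501 to 1757. With only the 4 largazole libraries in the fit 530 genes were higher and 427 lower, so that the direction with more genes depended on the fit.

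Gene lists of 57 pathways and families were read against these shares, 8.12% higher and 9.67% lower under largazole. The DMSO shares of all genes were 7.11% higher and 4.01% lower, so a list's counts in the 2 conditions are not directly comparable. In 24 lists more members rose than fell, in 28 more fell than rose, in 3 the numbers were equal, and in 2 no member passed.

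**Figure D1:**
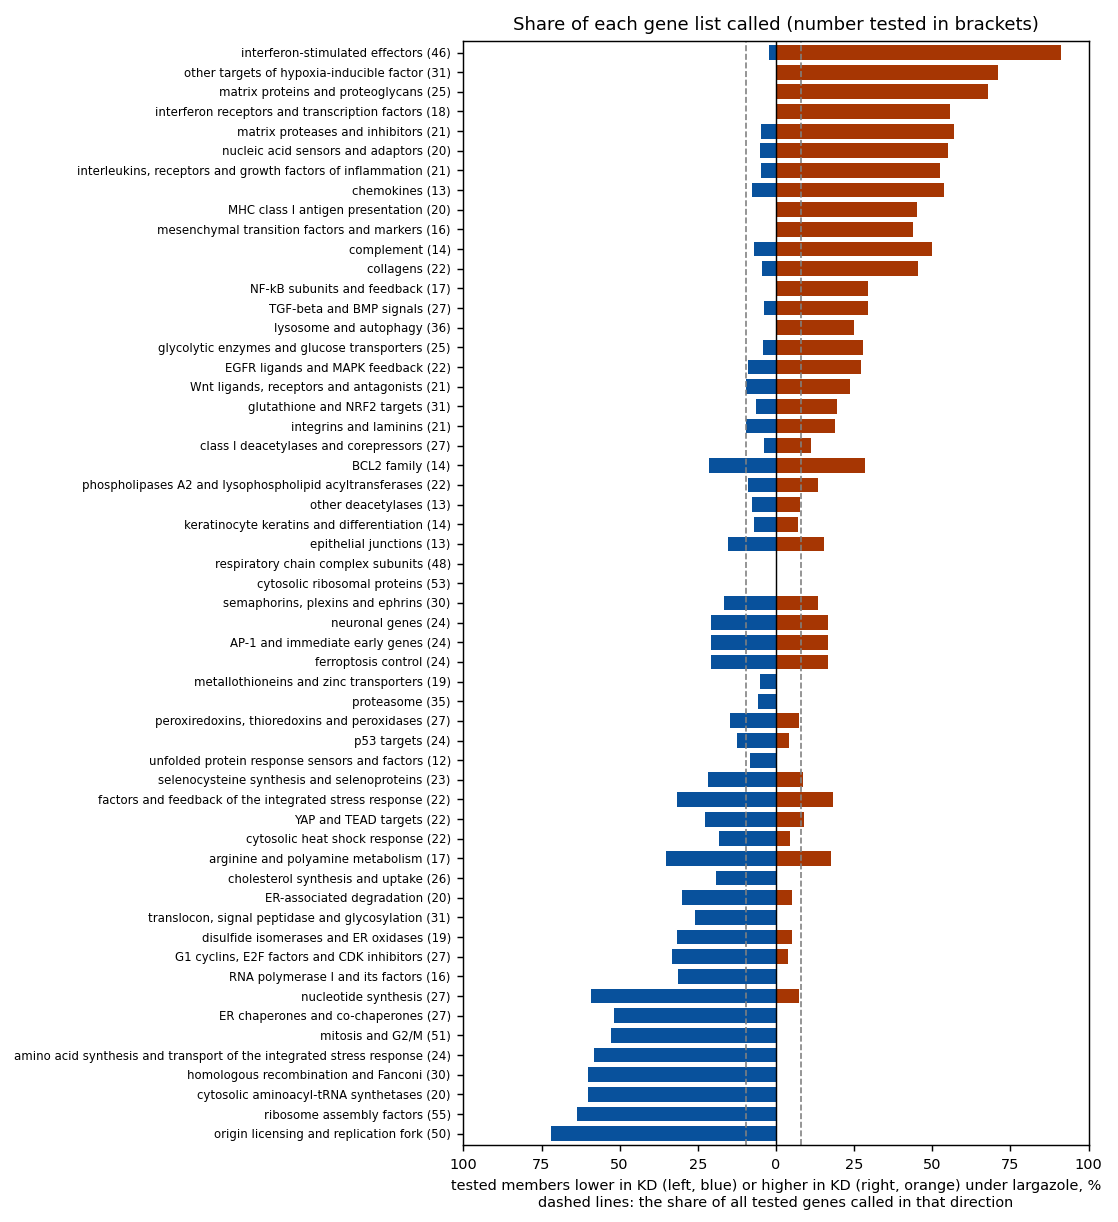
Share of the tested members of each of 56 gene lists (at least 12 tested members) that were lower (left bars) or higher (right bars) in KD than in parental cells under largazole, in percent, with dashed lines at the shares of all tested genes. Interferon-stimulated effectors, HIF targets and matrix proteins reach furthest to the right, with 91.3%, 71% and 68%, and replication and ribosome assembly genes furthest to the left, with 72% and 63.6%, before the aminoacyl-tRNA synthetases and the recombination genes with 60% each.

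Chaperones of the ER, several of them abundant, were lower in KD cells. Of 27 tested ER chaperones and co-chaperones 14 fell (51.9%, against 9.67% of all genes) and 0 rose, with a median log2 fold change of -0.39. Their summed level was 16100 and 16200 CPM in parental and 8020 and 7590 CPM in KD cells. The count lay between 12 and 15 in every setting tried, each left-out library included.

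Hspa5, the main ER chaperone and a partner of the stress sensors (chromosome 2, 34771970 to 34777547, plus strand), stood at 2620 and 2660 CPM in parental and at 451 CPM in each KD library. KD cells held 17.1% of the parental level, a log2 fold change of -2.55 ± 0.08 (adjusted p = 1.29e-07). In DMSO the same genotypes stood at 2350 and 2320 against 1220 and 1300 CPM. The 2 KD values under largazole were thus the lowest of the series, and no library of the other groups came near them. The knockdown effect on Hspa5 was larger under largazole than in DMSO by -1.66 ± 0.10 on the log2 scale (adjusted p = 0.000182).

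Hsp90b1, the ER form of HSP90, stood at 3420 and 3540 CPM in parental and at 1110 and 1090 CPM in KD cells (log2 fold change -1.66 ± 0.08, adjusted p = 2.42e-06). Calr, a lectin chaperone that holds calcium, fell from 2730 and 2600 to 1100 and 941 CPM (-1.39 ± 0.09, adjusted p = 2.19e-05). Creld2, a disulfide-handling protein, fell from 172 and 169 to 40 and 32.2 CPM (-2.24 ± 0.11, adjusted p = 2.48e-06). Each was also lower in DMSO by a smaller amount (-0.75, -0.60 and -1.11). Hyou1, which recharges Hspa5 with nucleotide, fell by 1.61, Sdf2l1 by 1.62, Manf by 1.46 and the co-chaperone Dnajc3 by 1.28 on the log2 scale. The test of the difference between largazole and DMSO passed for 6 of the 27 chaperones, which all had a larger decrease under largazole: Hspa5, Creld2, Hsp90b1, Hyou1, Calr and Dnajc3. For the last 5 the log2 differences lay between -1.13 and -0.69, and they passed in 6 to 9 of 15 alternative settings, whereas Hspa5 passed in all 15.

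**Figure D2:**
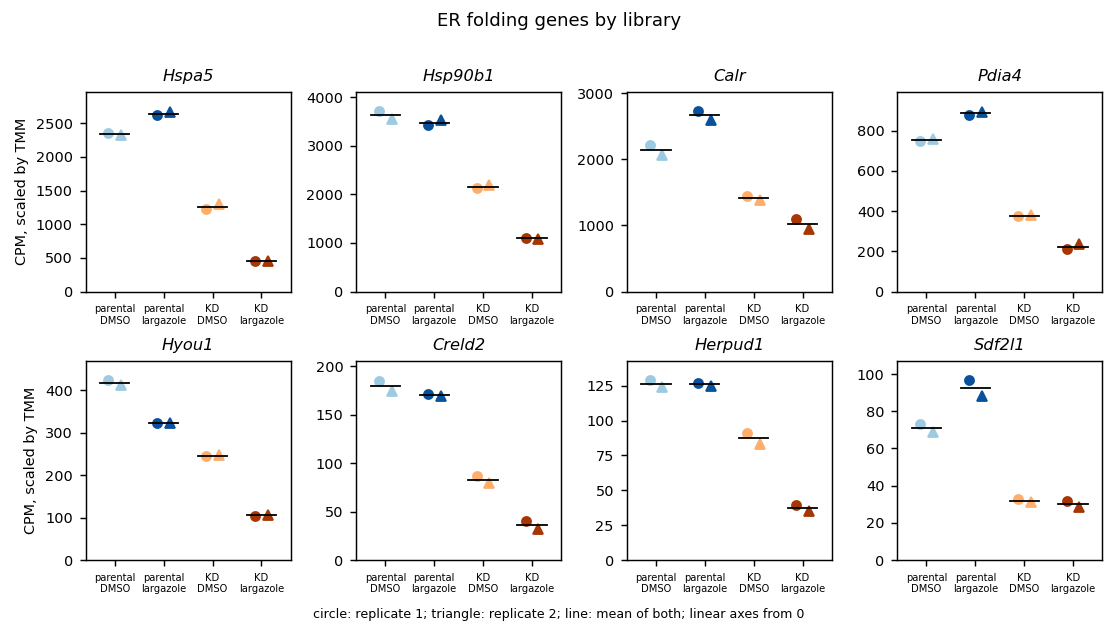
Expression of 8 ER folding genes in each library, in CPM scaled by TMM on linear axes from 0; circles are replicate 1, triangles replicate 2 and lines the means of 2 libraries. In all 8 genes the KD largazole libraries lie below the parental largazole libraries, and Hspa5 is at 451 CPM in both KD largazole libraries.

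Several of these genes share a promoter element, the ER stress response element that the factors NF-Y and ATF6 bind. The letters CCAAT and CCACG with 9 bases of any kind between them were searched on both strands of the window from 250 bases before to 50 after each RefSeq start (GRCm38.p6). They occur in 39 of 32851 promoters (0.119%) and in 15 tested genes, of which 11 were called lower (73.3%) and 1 higher (6.67%), beside 10.1% lower and 8.0% higher among the 9523 tested genes with a promoter sequence. Of 21 chaperones with a sequence 6 hold the element, and all 6 fell. The windows upstream of the start are shown because they carry the element in the chaperones that fell, in the promoter shared by 2 genes, and in a gene whose level did not pass; the element stands in capitals, in either orientation, on the strand of the gene.
Hspa5 (chr2:34772013-34772055, plus strand): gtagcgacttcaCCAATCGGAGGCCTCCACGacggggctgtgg
Hsp90b1, first element (chr10:86705626-86705668, minus strand): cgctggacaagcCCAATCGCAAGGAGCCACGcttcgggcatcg
Hsp90b1, other element (chr10:86705521-86705563, minus strand): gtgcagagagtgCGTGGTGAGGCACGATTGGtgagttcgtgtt
Calr (chr8:84847063-84847105, minus strand): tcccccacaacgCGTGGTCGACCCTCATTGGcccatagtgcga
Canx (chr11:50325788-50325830, minus strand): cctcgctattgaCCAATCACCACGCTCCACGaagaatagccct
Dnajc3 (chr14:118937815-118937857, plus strand): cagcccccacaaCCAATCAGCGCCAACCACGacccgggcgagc
Creld2 (chr15:88819508-88819550, plus strand): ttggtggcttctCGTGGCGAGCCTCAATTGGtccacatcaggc
Pdia6 (chr12:17266479-17266521, plus strand): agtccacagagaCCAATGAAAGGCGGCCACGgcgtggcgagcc
Syvn1 (chr19:6046520-6046562, plus strand): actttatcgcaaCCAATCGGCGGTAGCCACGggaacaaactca
Pan2 (chr10:128303275-128303317, plus strand): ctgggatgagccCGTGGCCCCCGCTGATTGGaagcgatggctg

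The window of Creld2 is, on the other strand, that of Alg12, a mannosyltransferase of glycan assembly that is transcribed the other way. Alg12 stood at 43.7 and 41.8 CPM in parental and 24.2 and 24.8 CPM in KD cells (log2 fold change -0.80 ± 0.11, adjusted p = 0.0013). The lectin chaperone Canx fell by 0.49 on the log2 scale and the ubiquitin ligase of ER-associated degradation Syvn1 by 0.52. Pan2, a deadenylase subunit, carries the same letters and had 19.3 and 20.2 CPM in parental and 16.6 and 18.9 CPM in KD cells (-0.15, adjusted p = 0.468). A match of letters is a description of the window and not evidence of binding in these cells.

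Other ER genes moved less uniformly. Of 19 disulfide isomerases and ER oxidases 6 fell (31.6%) and 1 rose (5.26%), beside 9.67% and 8.12% of all genes. Pdia4 dropped from 877 and 893 to 212 and 235 CPM (-1.98 ± 0.08, adjusted p = 6.21e-07), the oxidase Ero1lb from 23.4 and 21.9 to 7.09 and 8.63 CPM (-1.52 ± 0.15, adjusted p = 0.000213), and Pdia3 and Pdia6 each by 0.99 on the log2 scale. Of 20 genes of ER-associated degradation, which sends misfolded proteins to the proteasome, 6 fell and 1 rose, and 10 fell without KD largazole replicate 1. Herpud1, a membrane scaffold of that pathway, stood at 127 and 125 CPM in parental and at 39.7 and 35.3 CPM in KD cells (-1.75 ± 0.09, adjusted p = 5.7e-06), well apart, and its decrease exceeded that in DMSO by -1.22 (adjusted p = 0.00537). Sel1l, the partner of Syvn1, fell by 0.94.

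The translocon, signal peptidase and glycosylation list had 8 of 31 members lower (25.8%) and 0 higher, led by Ssr1 (-0.89) and Spcs3 (-0.73). Leaving out either parental largazole library, either parental DMSO library or KD DMSO replicate 2 brought it to between 3 and 5, and leaving out KD largazole replicate 1 brought it to 15. Of 12 genes that encode sensors and factors of the unfolded protein response 1 fell (8.33%, beside 9.67% of all genes), Wfs1 (-0.64). At an unadjusted p under 0.05 3 were higher and 6 lower, and in 7 both KD libraries lay below both parental ones, as in 27.8% of all tested genes. Among these 12, 3 and 4 fell without KD largazole replicate 1 and replicate 2. Xbp1 stood at 128 and 131 CPM in parental and 116 and 107 CPM in KD cells (-0.21, adjusted p = 0.111). Its log2 fold change was -0.275 without KD largazole replicate 1. Atf6 stood at 77.1 and 85.3 against 61.2 and 72.7 CPM (-0.28, adjusted p = 0.109, and 0.0225 with a replicate block). The spliced form of Xbp1 RNA was not measured by these gene counts.

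Many genes of the integrated stress response, the arm in which ATF4 raises genes of amino acid supply, were lower in KD cells under largazole. The DMSO comparison had 4 of 24 genes of amino acid synthesis and transport lower, beside 4.01% of all genes, with a median of -0.07. Under largazole 14 of the 24 fell (58.3%, beside 9.67% of all genes) and 0 rose, with a median log2 fold change of -0.35. Without parental largazole replicate 1 or replicate 2 the count was 6. Slc7a11, the cystine transporter, stood at 13.8 and 16.7 CPM in parental and 7.64 and 8.02 CPM in KD cells (-0.96 ± 0.15, adjusted p = 0.00202). In DMSO it had 28.5 and 32.4 against 37.1 and 37.7 CPM (0.30, adjusted p = 0.178), and the 2 effects differed by -1.26 (adjusted p = 0.0394). The edgeR test of that difference passed for 1 of the 24 genes, Slc7a11, and DESeq2 called 3. Cth, which makes cysteine from cystathionine, fell by 1.46, the arginine and lysine transporter Slc7a1 by 1.08 and the leucine transporter Slc7a5 by 0.94. Mthfd2 and Shmt2, mitochondrial enzymes of one-carbon metabolism, fell by 0.69 and 0.65.

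Among 22 factors and feedback genes of that response 7 fell (31.8%) and 4 rose (18.2%), beside 9.67% and 8.12% of all genes. Ddit3, the factor CHOP, stood at 51.8 and 46.7 CPM in parental and 18.7 and 12.5 CPM in KD cells (-1.67 ± 0.17, adjusted p = 0.000238). Trib3, an inhibitor of ATF4 and AKT, stood at 57.9 and 47.6 against 19.8 and 17.9 CPM (-1.49 ± 0.12, adjusted p = 6.41e-05). Neither gene's groups overlapped, and the overlap of Ddit3 is with Mars, on the opposite strand. Chac1, which degrades glutathione, fell by 0.93 under largazole and had -0.04 in DMSO, a difference of -0.89 (adjusted p = 0.032). Atf4 itself stood at 436 and 409 against 349 and 283 CPM (-0.42 ± 0.10, adjusted p = 0.0188), a call lost when either parental largazole library was left out (adjusted p = 0.136 without replicate 1 and 0.0724 without replicate 2). The letters TGATG, any base, AA and any base of the amino acid response element that ATF4 binds stand in 3.95% of promoters, and of 268 tested genes with them 13.4% were lower and 11.6% higher, beside 10.1% and 8.0% of the tested genes with a sequence. The 4 factors that rose include Eif2ak2, the kinase PKR, which is also an interferon-stimulated gene (1.06), and Ddit4, an inhibitor of mTORC1 that is also a HIF target (1.08).

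The cytosolic aminoacyl-tRNA synthetases, which charge tRNAs with amino acids, shifted by small amounts in 1 direction. Of 20 tested 12 fell (60%, beside 9.67% of all genes), with a median of -0.29 and a range from -0.58 to 0.20. In DMSO the median was -0.14, 0 passed with edgeR or DESeq2, and 7 were lower at an unadjusted p under 0.05. The test of the difference between the conditions passed for 0 with edgeR or DESeq2. At an unadjusted p under 0.05 that difference was negative for 5. Wars, for tryptophan, stood at 164 and 147 CPM in parental and at 105 and 102 CPM in KD cells (-0.58 ± 0.08, adjusted p = 0.00108). In 17 of the 20 genes both KD libraries lay below both parental libraries, as in 27.8% of all tested genes. With either parental DMSO library left out 6 synthetases fell, with either parental largazole library left out 3, and with only the 4 largazole libraries 2.

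Interferon-stimulated genes were the group most often higher in KD cells. Of 46 tested effectors 42 rose (91.3%, against 8.12% of all genes) and 1 fell, with a median log2 fold change of 1.84. Their summed level was 881 and 853 CPM in parental and 2560 and 2150 CPM in KD cells. Across all settings 28 to 43 effectors rose, the fewest when parental largazole replicate 1 was left out.

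Ifit1, which binds foreign RNA ends, had 2.45 and 3.69 CPM in parental and 21.5 and 23.8 CPM in KD cells (log2 fold change 2.88 ± 0.26, adjusted p = 0.000139). Isg15, a ubiquitin-like modifier, had 6.95 and 6.20 against 43.9 and 35 CPM (2.58 ± 0.42, adjusted p = 0.00274). Oas2, which makes the signal for RNA decay, had 0.477 and 0.395 against 8.96 and 9.51 CPM (4.38 ± 0.55, adjusted p = 0.000707). In each of the 3 genes the KD values were several times the parental ones. Cmpk2, Rsad2 and Ifi44 rose by 2.79, 2.62 and 3.81. The 3 effectors that did not pass were Mx1 (2.31, adjusted p = 0.0652, and 0.0449 with a replicate block), Isg20 (0.34) and Epsti1 (0.30). Slfn9 fell, with 35.8 and 43.8 CPM in parental and 10.2 and 26.4 CPM in KD cells (-1.11 ± 0.31, adjusted p = 0.0363). The call was lost when any 1 of the parental or KD DMSO libraries was left out. Slfn9 had fractional counts in 6 libraries, and its value is uncertain.

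Receptors, sensors and transcription factors of the pathway followed the effectors with smaller changes. Of 20 nucleic acid sensors and adaptors 11 rose (55%) and 1 fell (5%), beside 8.12% and 9.67% of all genes. Zbp1, a sensor of Z-form nucleic acid, had 1.77 and 1.12 CPM in parental and 24.7 and 20.4 CPM in KD cells (3.96 ± 0.47, adjusted p = 0.000529), and the RNA helicases Dhx58, Ifih1 and Ddx58 rose by 2.33, 1.38 and 1.17. Mb21d1, the DNA sensor cGAS, was the member that fell, from 12.2 and 12.5 to 5.77 and 7.22 CPM (-0.92 ± 0.16, adjusted p = 0.00395). Of 18 receptors and factors 10 rose (55.6%) and 0 fell, and 45% of the MHC class I genes described below rose. Irf7, the factor that amplifies type I interferon, had 6.40 and 7.38 against 37.6 and 30 CPM (2.29 ± 0.36, adjusted p = 0.00226), and the gene it overlaps is Phrf1, on the opposite strand. Irf9 and Stat2, factors that carry the interferon signal to the promoters, rose by 1.57 and 1.16. The counts were 7 of the sensors without parental largazole replicate 1, and 6 of the receptors and factors without parental largazole replicate 1 or replicate 2. Of 20 genes of MHC class I presentation 9 rose, among them H2-T23 (39.8 and 37.7 against 114 and 90.7 CPM), the peptide-loading factor Tapbp (0.77) and the immunoproteasome subunit Psmb10 (1.28), and 3 rose when parental largazole replicate 2 was left out and 15 when KD largazole replicate 2 was.

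In DMSO 43 of the 46 effectors were higher in KD cells and their median was 2.52, above the 1.84 seen under largazole. The edgeR test of the difference between the conditions passed for 0 of the 46, while 16 had a negative difference at an unadjusted p under 0.05 and DESeq2 called 3. The KD DMSO libraries themselves differed, with Ifit1 at 44.1 and 28.4 CPM and Isg15 at 55.3 and 18.4 CPM, while the KD largazole libraries lay closer together in these genes.

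The element recognised by interferon regulatory factors was searched on both strands as GAAA, 2 bases of any kind and GAAA. It occurs in 1131 of 32851 promoters (3.44%) and in 348 tested genes, of which 74 were higher (21.3%) and 34 lower (9.77%), beside 8.0% and 10.1% of the tested genes with a promoter sequence. Of 38 effectors with a sequence 19 hold it, and 18 of these rose, the other being Slfn9. That share is near that of the whole list, in which 42 of 46 rose (91.3%). Windows of 3 effectors that rose are shown, with the element in capitals; sites in Ifit1 lie close together and their windows overlap.
Ifit1, upstream site (chr19:34640770-34640809, plus strand): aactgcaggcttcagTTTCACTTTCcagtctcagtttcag
Ifit1, downstream site (chr19:34640789-34640828, plus strand): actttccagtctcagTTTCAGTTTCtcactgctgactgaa
Isg15 (chr4:156200866-156200905, minus strand): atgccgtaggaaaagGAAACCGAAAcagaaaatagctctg
Rsad2 (chr12:26456548-26456587, minus strand): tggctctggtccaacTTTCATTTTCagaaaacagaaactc

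Genes of DNA replication were lower in KD cells. Without drug 14 of 50 genes of origin licensing and the replication fork were lower, beside 4.01% of all genes, with a median of -0.21. Under largazole 36 of the 50 fell (72%, beside 9.67% of all genes) and 0 rose, with a median log2 fold change of -0.66. Their sum was 2470 and 2380 CPM in parental and 1590 and 1560 CPM in KD cells, and in 45 of the 50 both KD libraries lay below both parental ones, as in 27.8% of all tested genes. The count lay between 27 and 43 in every setting. In bulk RNA, fewer cells in S phase and less RNA per cell cannot be told apart.

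Cdc6, which loads the helicase at origins, had 24.2 and 30.2 CPM in parental and 9.20 and 10.2 CPM in KD cells (-1.49 ± 0.16, adjusted p = 0.000281). Orc1, a subunit of the origin recognition complex, had 11.4 and 11.7 against 4.44 and 5.12 CPM (-1.27 ± 0.15, adjusted p = 0.000574). Fen1, the flap endonuclease of lagging strands, had 52.2 and 47.8 against 25.6 and 23.9 CPM (-1.01 ± 0.09, adjusted p = 0.000153). In these genes the parental DMSO libraries were the highest of the series (52.3 and 44.5, 19.7 and 20.3, and 107 and 105 CPM) and the KD largazole libraries the lowest. Subunits of the helicase fell together, Mcm3 by 1.01, Mcm2 by 0.95, Mcm5 by 0.81, Mcm7 by 0.76 and Mcm6 by 0.67. Fen1 and Mcm6 were the 2 genes of the list whose decrease differed from that in DMSO (-0.85, adjusted p = 0.032, and -0.61, adjusted p = 0.0471).

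The promoters of some of these genes hold the E2F letters TTTGGCGC or TTTCCCGC on either strand, which occur in 514 of 32851 promoters (1.56%). Of 334 tested genes with them 68 were lower (20.4%) and 15 higher (4.49%), beside 10.1% and 8.0% of the tested genes with a sequence. In the licensing and fork list 14 of 41 promoters hold them, and 10 of these genes fell. That share is near that of the whole list, in which 36 of 50 fell (72%). The sites of Cdc6 and 3 helicase subunits are shown, with the letters in capitals, because these genes fell together and differ in the number and orientation of their sites.
Cdc6 (chr11:98907998-98908035, plus strand): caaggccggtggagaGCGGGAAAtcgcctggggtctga
Mcm5 (chr8:75109345-75109382, plus strand): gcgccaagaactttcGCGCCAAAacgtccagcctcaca
Mcm6, upstream site (chr1:128359793-128359830, minus strand): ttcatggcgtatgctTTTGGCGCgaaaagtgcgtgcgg
Mcm6, downstream site (chr1:128359730-128359767, minus strand): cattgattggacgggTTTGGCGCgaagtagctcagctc
Mcm7 (chr5:138172026-138172063, minus strand): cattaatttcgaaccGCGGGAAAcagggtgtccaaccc

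**Figure D3:**
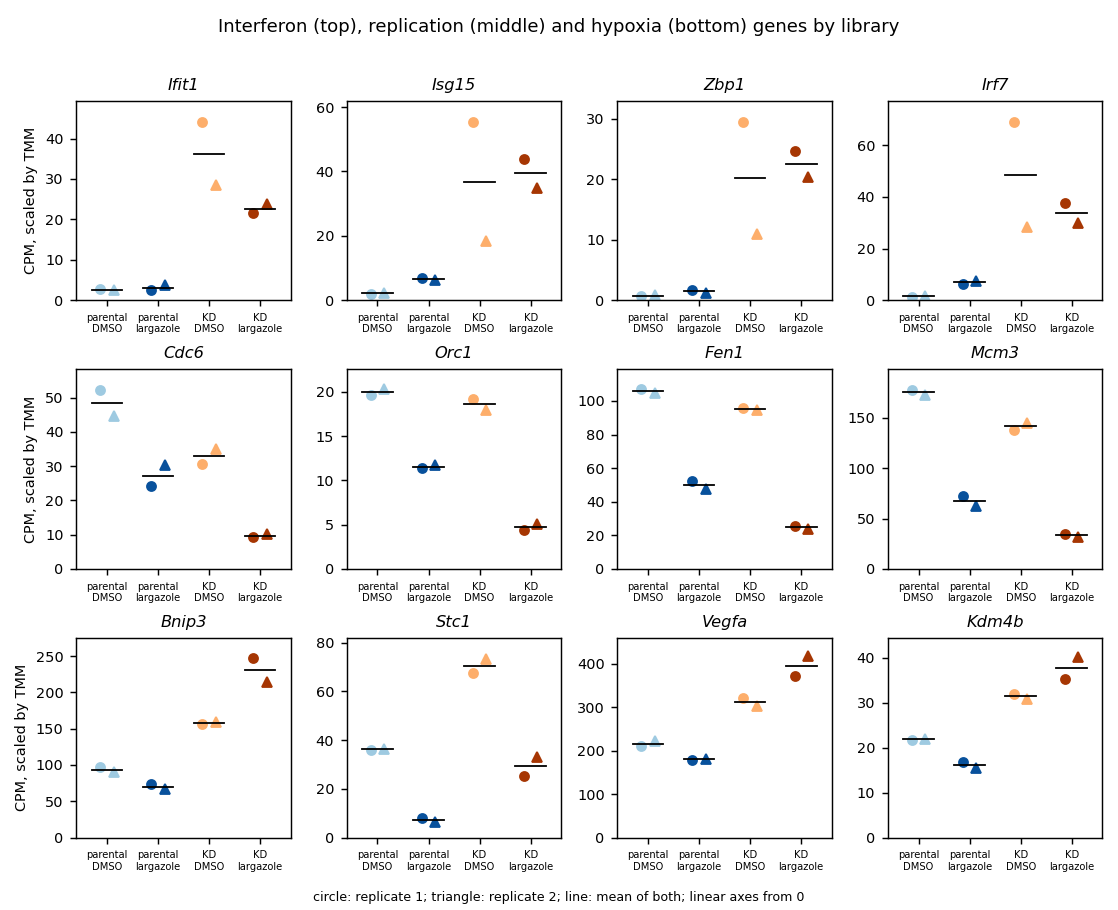
Expression of 4 interferon-stimulated genes (top row), 4 replication genes (middle row) and 4 HIF targets (bottom row) in each library, in CPM scaled by TMM on linear axes from 0; circles are replicate 1, triangles replicate 2 and lines the means of 2 libraries. KD largazole lies above parental largazole in the top and bottom rows and below it in the middle row, and the KD DMSO replicates are far apart in the top row (Isg15 at 55.3 and 18.4 CPM).

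Genes that feed or follow replication moved the same way. Of 27 genes of nucleotide synthesis 16 fell (59.3%) and 2 rose (7.41%), beside 9.67% and 8.12% of all genes. The ribonucleotide reductase subunit Rrm2 had 86.8 and 76.1 CPM in parental and 40.5 and 41.9 CPM in KD cells (-0.98 ± 0.09, adjusted p = 0.000153), and the pyrimidine synthesis enzyme Cad fell by 1.00. The 2 that rose were Paics (0.47) and Dut (0.49), and the call of Dut was lost without any 1 library other than KD largazole replicate 2 (adjusted p from 0.0504 to 0.148). Of 27 G1 cyclins, E2F factors and CDK inhibitors 9 fell (33.3%) and 1 rose (3.7%). Ccne1, the cyclin of S phase entry, had 28.4 and 23.7 against 11.9 and 9.91 CPM (-1.26 ± 0.15, adjusted p = 0.000605), and E2f7, a repressor of E2F targets, fell by 1.26. Cdkn1a, the CDK inhibitor p21, had 162 and 157 CPM in parental and 209 and 178 CPM in KD cells (0.28 ± 0.09, adjusted p = 0.0567). It passed with no filter (adjusted p = 0.0344) and with a replicate block (adjusted p = 0.0174), while Cdkn2c rose (0.53). E2f1 had -0.16 (adjusted p = 0.274).

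For genes of mitosis and of recombination the test of the difference between the conditions passed for 0 with edgeR or DESeq2. At an unadjusted p under 0.05 the difference was negative for 6 and 12 and positive for 0 and 1. Under largazole 27 of 51 genes of mitosis and G2/M fell (52.9%, beside 9.67% of all genes) and 0 rose. Their median was -0.37, led by Mybl2 (-1.06) and the kinase Aurkb (-0.82). Repair by recombination and the Fanconi pathway had 18 of 30 genes lower (60%) and 0 rose, with a median of -0.60, among them the checkpoint kinase Chek1, from 14.9 and 15.3 to 7.48 and 7.22 CPM (-1.04 ± 0.13, adjusted p = 0.000614), and the nuclease Exo1 (-1.02). Without parental largazole replicate 1 and replicate 2 the counts of these lists were 12 and 10 for mitosis and 9 and 8 for recombination. The mitosis count was 17 without either parental DMSO library, and nucleotide synthesis had 10 lower without either parental largazole library.

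Genes of ribosome assembly were lower in KD cells. The DMSO comparison had 21 of 55 assembly factors lower, beside 4.01% of all genes. The test of the difference between the conditions passed for 0 with edgeR or DESeq2. At an unadjusted p under 0.05 that difference was negative for 11. Under largazole 35 of the 55 fell (63.6%, beside 9.67% of all genes) and 0 rose, with a median of -0.42. Nolc1, a nucleolar chaperone, had 156 and 152 CPM in parental and 85 and 84 CPM in KD cells (-0.86 ± 0.07, adjusted p = 7.39e-05), and Rrs1, needed for the large subunit, fell by 0.88. Of 16 genes of RNA polymerase I and its factors 5 fell (31.2%, beside 9.67% of all genes), with the subunit Polr1b at -0.86. The assembly count was 18 without parental largazole replicate 1 or replicate 2. The polymerase I count was 3 without any 1 parental library and 8 without KD largazole replicate 1. Of 53 cytosolic ribosomal protein genes 0 passed with edgeR or DESeq2 and 1 was higher at an unadjusted p under 0.05, with a median of 0.16, but 50 were higher without KD largazole replicate 2, the library with the lower ribosomal protein sum. Of 48 respiratory chain subunits 0 passed with edgeR or DESeq2, and at an unadjusted p under 0.05 1 was higher and 2 were lower, but 27 were higher without that library.

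Targets of HIF were higher in KD cells under largazole. Without drug 12 of 31 targets outside glycolysis were higher and 1 lower, beside 7.11% and 4.01% of all genes, with a median of 0.33. The edgeR test of the difference between the conditions passed for 1 in each direction, and DESeq2 called 4. Under largazole 22 of the 31 rose (71%, beside 8.12% of all genes) and 0 fell, with a median log2 fold change of 0.52. Their sum was 2850 and 2900 CPM in parental and 4270 and 4480 CPM in KD cells. The count was 13 without parental largazole replicate 2.

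Bnip3, a receptor for the removal of mitochondria, had 74.1 and 66.4 CPM in parental and 248 and 214 CPM in KD cells (1.72 ± 0.10, adjusted p = 8.05e-06). Its increase exceeded that in DMSO by 0.97 (adjusted p = 0.0263). Vegfa, the vessel growth factor, had 179 and 181 against 373 and 418 CPM (1.14 ± 0.08, adjusted p = 3.19e-05). Stc1, a secreted glycoprotein, had 7.83 and 6.20 against 25.4 and 33.2 CPM (2.07 ± 0.16, adjusted p = 6.19e-05), although its highest values were in KD DMSO (67.5 and 73.2 CPM). In Bnip3 and Vegfa the KD largazole libraries were instead the highest of the series. The histone demethylase Kdm4b rose by 1.23 and the carbonic anhydrase Car9 by 1.04. Among 25 glycolytic enzymes and glucose transporters 7 rose (28%) and 1 fell (4%), beside 8.12% and 9.67% of all genes. Eno2, an enolase, had 34.5 and 33.9 against 61.4 and 63.6 CPM (0.87 ± 0.10, adjusted p = 0.000374) and 0.00 in DMSO, a difference of 0.86 (adjusted p = 0.0489). Pdk1 and Slc2a1 rose by 0.51 and 0.44, and Ldha had 0.24 (adjusted p = 0.121, 0.0472 with no filter and 0.0374 with a replicate block). Glycolysis had 4 higher when either parental DMSO library or parental largazole replicate 1 was left out, 3 when parental largazole replicate 2 was, and 17 when KD largazole replicate 2 was. The core letters ACGTG of the hypoxia response element stand in 19.6% of promoters and in 2796 tested genes, of which 196 were higher (7.01%, beside 8.0% of all tested genes with a sequence) and 335 lower, a share above the 10.1% of those genes.

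Matrix genes were higher in KD cells in both conditions. Of 25 matrix proteins and proteoglycans 17 rose (68%, beside 8.12% of all genes) and 0 fell, with a median of 0.72 under largazole and 0.66 in DMSO. The summed level was 15600 and 16000 CPM in parental and 24900 and 24400 CPM in KD cells, and the count lay between 14 and 19 in all settings. Dcn, a small proteoglycan, had 75.3 and 75.7 against 183 and 173 CPM (1.24 ± 0.07, adjusted p = 1.51e-05). Dpt, a dermal matrix protein, had 0.272 and 0.395 against 6.24 and 5.93 CPM (4.15 ± 0.35, adjusted p = 8.93e-05). Dpt rests on low counts in parental cells. Tnc, Thbs1 and Fbln5 rose by 1.21, 1.14 and 1.11.

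Of 22 collagen genes 10 rose (45.5%) and 1 fell (4.55%), beside 8.12% and 9.67% of all genes. Col6a2 had 9.19 and 9.82 against 34.8 and 32.9 CPM (1.83 ± 0.14, adjusted p = 6.41e-05), and Col3a1, the fibrillar collagen of soft tissue, 345 and 350 against 832 and 983 CPM (1.38 ± 0.09, adjusted p = 1.63e-05). Col1a1 had 0.23 (adjusted p = 0.0869, and 0.0438 with a replicate block). With either parental DMSO library left out 6 collagen genes rose, and with parental largazole replicate 1 or 2 left out 5 and 4. Of 21 matrix proteases and inhibitors 12 rose and 1 fell (7 and 6 rose without parental largazole replicate 1 and replicate 2), with Mmp3 at 11 and 7.84 against 25.3 and 25.1 CPM (1.42 ± 0.14, adjusted p = 0.000213) and Adamts5 at 1.27. Targets of the growth regulator YAP pointed the other way in part. Of 22 targets 5 were lower (22.7%) and 2 higher (9.09%), beside 9.67% and 8.12% of all genes, and more were lower without KD largazole replicate 2. Ctgf, a matrix-bound signal, had 34.4 and 30.1 against 8.42 and 7.15 CPM (-2.05 ± 0.16, adjusted p = 5.73e-05), and Cyr61, of the same family, 77.2 and 76.4 against 29.1 and 31.3 CPM (-1.35 ± 0.09, adjusted p = 1.71e-05). Of 10 fibroblast markers 8 were tested and 6 rose (75%, beside 8.12% of all genes). The 8 summed to 3580 and 3650 CPM in parental and 4500 and 5170 CPM in KD cells. The markers Lum and Fap reached at most 2 and 1 counts. The part of these markers in the matrix result was not tested.

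Inflammatory signals were higher in KD cells. The share that rose was 53.8% of the chemokines, 52.4% of the interleukin list and 50% of the complement genes, beside 8.12% of all genes. The share that fell was 7.69%, 4.76% and 7.14%, beside 9.67% of all genes. Of 13 chemokines 7 rose and 1 fell (4 rose without parental largazole replicate 2), and of 21 interleukins, receptors and growth factors of inflammation 11 rose and 1 fell. Il33, an alarmin of barrier tissues, had 62 and 58.2 CPM in parental and 330 and 360 CPM in KD cells (2.52 ± 0.08, adjusted p = 1.29e-07). In DMSO it stood at 373 and 366 against 984 and 977 CPM, a difference of 1.41, and the 2 effects differed by 1.11 (adjusted p = 0.0038). Parental cells under the drug were the lowest of the 4 groups and KD cells in DMSO the highest. Ccl2, which attracts monocytes, had 119 and 110 against 393 and 292 CPM (1.58 ± 0.13, adjusted p = 6.41e-05). Cxcl5, which attracts neutrophils, had 4.43 and 4.61 against 26.6 and 22.7 CPM (2.44 ± 0.24, adjusted p = 0.000224). Cxcl12 was the chemokine that fell (-0.84). The receptor Osmr rose by 1.52, the acute phase gene Saa3 by 2.27 and Il6 by 2.99, the last from 0.341 and 0.857 to 5.53 and 4.18 CPM. Ptgs2, cyclooxygenase 2, fell from 664 and 751 to 405 and 525 CPM (-0.61 ± 0.12, adjusted p = 0.00619, and 0.0812 without parental largazole replicate 2). Of 14 complement genes 7 rose and 1 fell, among them C3, the central component, with 49 and 58.1 against 213 and 262 CPM (2.15 ± 0.12, adjusted p = 5.79e-06). The letters of the NF-kB element, GGG, 2 bases of any kind and TTTCC, stand in 1.63% of promoters, and of 200 tested genes with them 10.5% were higher and 8.0% lower.

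Of 27 peroxiredoxins, thioredoxins and peroxidases 4 fell, Prdx6 included (14.8%, beside 9.67% of all genes), and 2 rose (7.41%, beside 8.12%), shares near those of all genes (8 fell without KD largazole replicate 1). Txnrd1, thioredoxin reductase, had 292 and 301 CPM in parental and 181 and 201 CPM in KD cells (-0.63 ± 0.07, adjusted p = 0.00051), and Srxn1, which repairs overoxidised peroxiredoxins, fell by 0.47. Sod3, the extracellular superoxide dismutase, rose from 182 and 158 to 414 and 329 CPM (1.12 ± 0.12, adjusted p = 0.000266). Of 31 glutathione genes and NRF2 targets 6 rose (19.4%) and 2 fell (6.45%), beside 8.12% and 9.67% of all genes. The haem oxygenase Hmox1 (0.97) and the ferritin chain Fth1 (0.81) were higher. Gclc, the first enzyme of glutathione synthesis, was lower (-0.57, adjusted p = 0.00966), a call lost without parental largazole replicate 2 (-0.51). Leaving out parental largazole replicate 2 left 3 that rose, and leaving out KD largazole replicate 2 gave 15. Gpx4, which like PRDX6 reduces phospholipid hydroperoxides, had 304 and 273 against 375 and 261 CPM (0.14 ± 0.14, adjusted p = 0.531), groups that overlapped. Its log2 fold change was 0.38 without KD largazole replicate 2.

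No difference passed the test for the 3 class I deacetylases Hdac1, Hdac2 and Hdac3 under the drug. Hdac1 had 225 and 222 against 216 and 207 CPM (-0.08, adjusted p = 0.498), Hdac2 138 and 147 against 154 and 138 CPM (0.03, adjusted p = 0.839), and Hdac3 116 and 108 against 106 and 96.2 CPM (-0.15, adjusted p = 0.284). Of 27 class I deacetylases and corepressors 3 rose (11.1%, beside 8.12% of all genes) and 1 fell (3.7%, beside 9.67%), shares near or below those of all genes. The number that rose changed when a largazole library was left out.

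The genes with the largest changes include some outside these groups. Steap4, a metalloreductase, had 1.16 and 1.38 CPM in parental and 13.6 and 13.4 CPM in KD cells (3.40 ± 0.22, adjusted p = 1.71e-05), Ism1, a secreted protein, 4.15 and 3.10 against 19.3 and 25.6 CPM (2.63 ± 0.21, adjusted p = 6.67e-05), and the bradykinin receptor Bdkrb1 0.545 and 0.923 against 5.92 and 4.86 CPM (2.85 ± 0.34, adjusted p = 0.000529). The complement gene Cfb, the protease Ctsc, the actin regulator Enah and the helicase Ddx60 rose by 3.48, 2.62, 2.85 and 2.97, the last not without parental largazole replicate 1 (adjusted p = 0.0575). Among the most lowered genes Spns2, a sphingosine phosphate transporter, had 10.8 and 13.4 against 1.09 and 2.23 CPM (-2.84 ± 0.29, adjusted p = 0.000262), and overlaps Mybbp1a, which fell too (-0.69), on the opposite strand. The polarity factor Pard6b and the exchange factor Arhgef10 fell by 2.08 and 1.98. Gvin1, Lce1h, Prickle1, Zfp57 and Csn3 also met the naming rule but lost their calls when a parental largazole library was left out: Gvin1 and Csn3 without replicate 1 (adjusted p = 0.0551 and 0.131), Gvin1 also without any 1 DMSO library (adjusted p from 0.0682 to 0.0867), and Lce1h, Prickle1 and Zfp57 without either (adjusted p from 0.0528 to 0.0889). Gvin1 had 0 and 13.4 CPM in the parental libraries and fractional counts in 5 libraries, and its value is uncertain.

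The decrease of Ass1 is uncertain because of a near-identical copy. Ass1, the arginine synthesis enzyme (chromosome 2, 31470207 to 31520672, plus strand), had 22.3 and 21.9 CPM in parental and 0.701 and 3.91 CPM in KD cells (-3.21 ± 0.51, adjusted p = 0.00232). Gm5424, a processed pseudogene on chromosome 10 (62071123 to 62072362, plus strand), had 0 CPM in both parental libraries and 26.6 and 27.6 CPM in KD cells. The transcripts are 99.5% identical over 1240 bases, and 622 of 1141 windows of 100 bases are the same in both, so reads of 1 may be assigned to the other. The 100 bases below, from GENCODE M21 on GRCm38, are shown as a coding window with the most differences between the transcripts. The 2 bases that differ in it are in capitals, and other differences lie outside it. The Ass1 transcript is 1696 bases long, so part of it lies outside the 1240 aligned bases.
Ass1-201, positions 532 to 631: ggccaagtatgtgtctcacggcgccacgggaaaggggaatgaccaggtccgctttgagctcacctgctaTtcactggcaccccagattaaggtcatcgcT
Gm5424-201, positions 330 to 429: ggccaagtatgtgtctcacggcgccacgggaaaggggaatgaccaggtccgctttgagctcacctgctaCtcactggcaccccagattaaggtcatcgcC

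**Figure D4:**
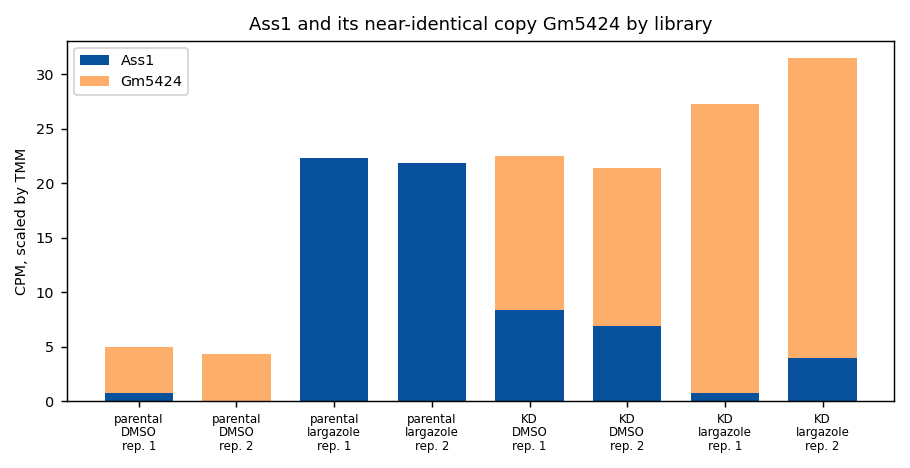
CPM scaled by TMM of Ass1 and Gm5424, stacked, in each of the 8 libraries, from 0. The parental largazole libraries hold only Ass1 (22.3 and 21.9 CPM) and the KD largazole libraries mostly Gm5424 (26.6 and 27.6 CPM), with nearer sums.

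With the 2 rows summed, a choice made after the values were seen, the parental libraries had 22.3 and 21.9 CPM and the KD libraries 27.3 and 31.6 CPM. The log2 fold change was then 0.41 ± 0.13 (adjusted p = 0.0479), the opposite sign to that of Ass1 alone. In DMSO the sum was 4.95 and 4.32 CPM in parental and 22.5 and 21.4 CPM in KD cells (2.24 ± 0.15, adjusted p = 1.9e-05). The knockdown difference of the sum was thus smaller under largazole than in DMSO, by -1.83 ± 0.20 (adjusted p = 0.00596).

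The knockdown effect was compared between 18 h of largazole and DMSO at 0 h gene by gene, conditions in which drug and time differ together. It differed for 29 genes (0.232% of the tested genes), 5 in the higher direction (0.0399%) and 24 in the lower (0.192%), and 1089 genes had an unadjusted p under 0.05. Of these 29 genes 17 were lower in KD cells under largazole and had a negative difference, and 5 were higher and had a positive one. The others rose in KD cells in DMSO and by less, or not past the threshold, under the drug. Clu, the secreted chaperone clusterin, is an example: it had 56.7 and 51.7 against 163 and 151 CPM in DMSO and 305 and 298 against 449 and 377 CPM under largazole, a difference of -1.08 ± 0.14 between the effects (adjusted p = 0.0165). The KD libraries were the higher ones in both conditions, and the largazole call of Clu was lost without parental largazole replicate 1 (adjusted p = 0.0696) or 2 (adjusted p = 0.0737). The protease gene Mcpt8, the lysyl oxidase Loxl2 and the surface protein Thy1 followed the same pattern (-1.66, -1.09 and -1.08). Itgbl1, a protein with integrin-like repeats, was lower in KD cells in DMSO (-0.38) and higher under largazole (0.51), and Cited2, a regulator of CBP and p300, was higher in DMSO (0.51) and lower under largazole (-0.29). The largazole calls of Itgbl1 and Cited2 were lost without parental largazole replicate 2 (adjusted p = 0.0673 and 0.0937), and that of Cited2 also without parental largazole replicate 1 (adjusted p = 0.177) or either parental DMSO library (adjusted p = 0.0681 and 0.0671). Without any 1 parental or KD DMSO library 2 to 5 of the 29 were still called, and all 29 without either KD largazole library.

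**Figure D5:**
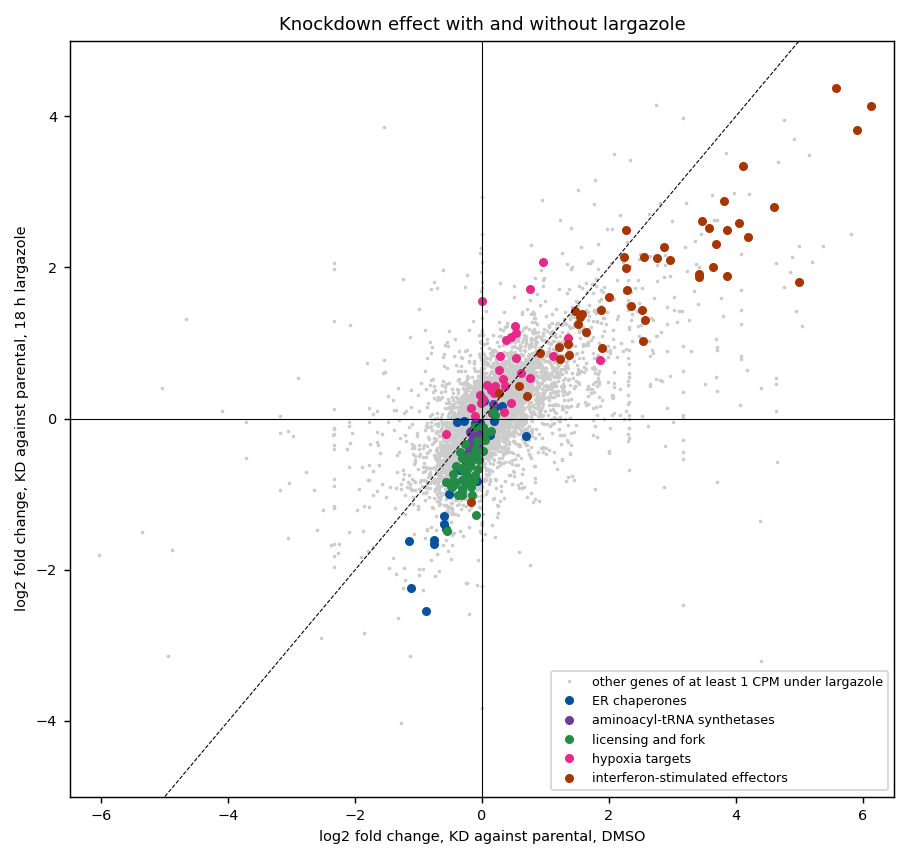
Log2 fold change of KD against parental cells under 18 h of largazole (vertical axis) and in DMSO (horizontal axis) for 12147 genes of at least 1 CPM under largazole, 8 of them outside the axes, with 5 gene lists coloured and a dashed line of equal effects. Interferon-stimulated effectors lie mostly below the line on the right (medians 2.52 in DMSO and 1.84 under largazole), and ER chaperones and replication genes lie below it on the left (medians of -0.39 and -0.66 under largazole).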

How the data were processed

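The authors deposited 1 table of estimated counts per gene for each library, per the file headers, and 2.71% of the values are not whole. Libraries were made with poly(A) selection and a directional kit, per the labels' protocols, and reads were placed on mm10, per the submitters' processing notes. Aligner, counting tool and strand setting: not given in the sources used here. Estimated counts were rounded and fitted with edgeR 4.0.16 (quasi-likelihood F test, TMM scaling) over all 8 libraries with 1 mean per group. Genes were kept by filterByExpr (minimum count 10, minimum total 15), and p-values were adjusted by Benjamini-Hochberg over 12517 genes with a threshold of 0.05. The test was also run on simulated data with the same relative spread for every gene and group. The KD largazole replicates stood further apart than those of the other groups, so that check does not cover unequal spread. CPM use TMM factors. Standard errors are derived from the F statistic, which includes the spread between replicate libraries as estimated over all groups. 27 symbols had turned into dates.

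Coordinates are from GENCODE M21 (GRCm38) and promoters from RefSeq (GRCm38.p6). The genes named were Prdx6, the 15 most raised and 15 most lowered genes (at least 5 CPM, groups not overlapping), up to 6 called members of each list, members among 5 or fewer that did not pass, 8 genes whose effect differed between conditions, and a few chosen genes such as Hdac1 and Gpx4. Further genes were named after their values were seen. A gene that met the naming rule is not reported here. The comparison and the gene lists were chosen with earlier results of these data known. Alternatives were other scalings (RLE, upper quartile), no filter and a stricter one, DESeq2 1.42.0, the 4 largazole libraries alone, a replicate block, removal of Rn45s, each library left out, and, added after seeing the data, Ass1 and Gm5424 summed.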

Additional observations from a re-analysis of the deposited data

Results flagged for a closer look

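The test of the difference between the knockdown effects under largazole and in DMSO (edgeR's quasi-likelihood test, adjusted over 12517 genes) flagged 29 genes. Values are log2 differences, largazole minus DMSO, with 2 libraries a group. Among ER genes the difference was -1.66 for Hspa5, -1.22 for Herpud1, -1.13 for Creld2, -0.99 for Pdia4, -0.91 for Hsp90b1, -0.85 for Hyou1, -0.79 for Calr and -0.69 for Dnajc3. Among stress response genes it was -1.26 for Slc7a11, -1.14 for Trib3 and -0.89 for Chac1. Among genes of replication and repair it was -0.85 for Fen1, -0.84 for Fignl1 and -0.61 for Mcm6. Among signalling and hypoxia genes it was 1.11 for Il33, 0.97 for Bnip3, 0.86 for Eno2, 0.89 for Itgbl1, -0.79 for Cyr61 and -0.80 for Cited2. Genes that were higher in KD cells in DMSO and by a smaller amount under largazole had -1.66 for Mcpt8, -1.15 for Ggt7, -1.09 for Loxl2, -1.08 for Thy1, -1.08 for Clu, -1.04 for Rnase4 and -0.89 for Odc1. The largazole calls of Clu, Rnase4 and Odc1 were lost without either parental largazole library (adjusted p from 0.0696 to 0.0918), and Ggt7 had no call under largazole. Ass1 had -7.61 and Gm5424 9.86, and their sum had -1.83. The values of the separate rows may depend on how reads of near-identical transcripts were assigned, which was not tested.

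All 29 genes kept the sign of the difference in 15 other settings. Hspa5 (-1.70 to -1.60, largest adjusted p = 0.00645) and Gm5424 (9.37 to 9.91, largest adjusted p = 0.00506) passed in all 15 of them, and Il33 in 11.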

How the results depend on the processing

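Under largazole 2227 genes differed, 1017 higher and 1210 lower. With only the 4 largazole libraries 957 differed, 530 higher and 427 lower. Leaving out 1 library at a time gave 812 to 4121 differing genes, 403 to 1984 higher and 409 to 2137 lower, the fewest without parental largazole replicate 2 and the most without KD largazole replicate 2. The number of genes whose effect differed between conditions was 29, and it was 114 with no filter, 84 with DESeq2, 119 with a replicate block and 2 to 544 with 1 library left out. The labels give replicate numbers without saying that they mark a shared culture or day, and with the replicate block 3003 genes differed under largazole, 1373 higher and 1630 lower. The correlation of replicate deviations was 0.364 between the largazole groups and -0.00767 to 0.343 between the others. RLE and upper-quartile scaling, the stricter filter, removal of Rn45s and, for the genes differing under largazole, DESeq2 and no filter kept these counts within 1.5 times. With upper-quartile scaling 1098 were higher and 1117 lower, a nearer split. The log2 fold change of Rn45s was 1.50 and ranged from -2.55 (without KD largazole replicate 1) to 3.70 with 1 library left out. With Ass1 and Gm5424 summed that of Ass1 was 0.41 in place of -3.21. The cause of these shifts was not tested, except that the sum moves reads between near-identical rows by construction.

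With 2 libraries a group the precision is limited by the number of libraries, and genes of a few CPM also by their low counts.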
